A study of Homo sapiens with 9 samples.

Results

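The replication-dependent histone genes of human cells lie in clusters on chromosomes 6 and 1, and the peaks described here are those of CDK9 and DDX21 that fell in these clusters in A375 cells, a human melanoma line. Members were chosen by position alone: a peak was taken when it overlapped, by at least 1 bp, any of 5 windows of the hg19 genome. The windows were chr6:26015000-26290000, chr6:27095000-27120000, chr6:27770000-27865000, chr1:149750000-149865000 and chr1:228610000-228650000, called below the large, small and middle windows of chromosome 6 and the large and small windows of chromosome 1. Together they span 550 kb and held 177 of the 27469 peaks of 6 lists. Peaks of different lists that overlapped were joined into 84 sites.

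The lists came from chromatin immunoprecipitation and sequencing with an antibody against CDK9 or against DDX21. Cells received DMSO, 25 µM A771726, or A771726 together with nucleotides, for 24 h. Every group was the same A375 line, and which nucleotides were added, and at what dose, is not stated in the labels. With 1 library per antibody and treatment there is no replicate error to set a difference against, and no p-value is given. A771726, the form in which leflunomide acts in the body, blocks dihydroorotate dehydrogenase and with it the making of pyrimidines.

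CDK9, the kinase subunit of P-TEFb, releases RNA polymerase II from its pause near the start of genes, while DDX21 is an RNA helicase concentrated in the nucleolus. Replication-dependent histone genes are short genes without introns that are transcribed mainly in S phase, when new DNA must be packed into nucleosomes. Their mRNAs end in a stem-loop and not in a poly(A) tail, and CDK9 is known to take part in forming that end. Their transcription takes place at a nuclear structure called the histone locus body. No annotation of the hg19 build was used, so no peak was assigned to a gene. The share of cells in S phase under each treatment was not measured in these data.

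The genes themselves were described from RefSeq (GRCh38.p14). There the neighbouring histone genes of the large chromosome 6 cluster include 32 protein-coding genes from H1-1 onward: 5 for linker histone H1, 4 for H2A, 8 for H2B, 7 for H3 and 8 for H4. The small cluster of chromosome 6, from H2BC11 to H2AC12, has 5 protein-coding genes, and the middle one 16. The large chromosome 1 cluster, from H2BC18 to H2AC21, has 11, and the small one has 3, H3-4, H2AC25 and H2BC26.

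The promoters of 5 of these genes are shown because 3 of them, H4C14, H2AC18 and H3C14, have an identical second copy that bears on the chromosome 1 peaks, while H1-4 and H2BC11 carry the elements typical of their histone class. Each line gives the 250 bases before the start site, 5′ to 3′ on the gene's strand, from RefSeq (GRCh38.p14). Capitals mark 4 motifs on either strand: the TATA element TATAAA, the box element CCAAT, the octamer ATTTGCAT known from H2B promoters, and the element AAACACA known from H1 promoters. Overlapping matches run together in capitals, and the H4C14 stretch holds no match to these letters.
H4C14: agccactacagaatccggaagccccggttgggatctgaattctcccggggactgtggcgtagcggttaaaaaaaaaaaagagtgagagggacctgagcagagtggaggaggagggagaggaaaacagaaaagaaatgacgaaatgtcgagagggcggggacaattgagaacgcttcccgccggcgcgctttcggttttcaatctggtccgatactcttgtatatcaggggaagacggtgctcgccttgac
H2AC18: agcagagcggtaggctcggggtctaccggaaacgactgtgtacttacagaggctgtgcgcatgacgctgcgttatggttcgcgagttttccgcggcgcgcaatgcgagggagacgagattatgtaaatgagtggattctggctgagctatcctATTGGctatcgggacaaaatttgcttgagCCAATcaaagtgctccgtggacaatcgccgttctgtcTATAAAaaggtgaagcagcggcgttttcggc
H3C14: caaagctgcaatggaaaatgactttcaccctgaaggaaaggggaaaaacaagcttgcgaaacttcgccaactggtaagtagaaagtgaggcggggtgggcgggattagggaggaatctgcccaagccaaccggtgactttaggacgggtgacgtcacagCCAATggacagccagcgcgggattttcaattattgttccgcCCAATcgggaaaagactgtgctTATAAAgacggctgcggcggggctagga
H1-4: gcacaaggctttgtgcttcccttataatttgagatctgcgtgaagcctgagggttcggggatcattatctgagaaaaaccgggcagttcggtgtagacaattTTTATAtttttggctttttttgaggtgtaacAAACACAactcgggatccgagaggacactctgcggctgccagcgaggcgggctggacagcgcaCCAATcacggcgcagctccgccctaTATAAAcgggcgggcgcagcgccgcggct
H2BC11: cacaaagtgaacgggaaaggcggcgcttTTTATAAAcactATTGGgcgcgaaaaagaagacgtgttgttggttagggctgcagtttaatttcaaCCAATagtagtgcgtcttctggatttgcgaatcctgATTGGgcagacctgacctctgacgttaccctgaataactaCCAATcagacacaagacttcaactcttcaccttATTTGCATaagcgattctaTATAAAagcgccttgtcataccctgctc

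The promoter of H4C14 matched that of H4C15 at 300 of 300 bases, 250 before and 50 after the start. H2AC18 matched H2AC19 at 299 of 299 aligned bases, with the start sites offset by 1 base, and H3C14 matched H3C15 at 296 of 296, offset by 4 bases. In each of the 3 pairs the genes lie on opposite strands. H2BC11 and H2AC11 point away from each other and share 253 bases of promoter, read on opposite strands. Promoters were found for 62 of the 67 histone genes listed, 66 promoters in all.

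The 4 motifs were counted over windows of 300 bases on both strands. TATAAA (reverse TTTATA) was in 43 of the 66 histone promoters, 65.2%, against 11.5% of all 35116 promoters. CCAAT (reverse ATTGG) was in 57, 86.4%, against 34.6%. These 57 were all 19 H2B, all 15 H2A, all 14 H3 and all 6 H1 promoters, but only 3 of 12 H4 promoters. ATTTGCAT (reverse ATGCAAAT) was in 25, 37.9%, against 1.77%, of which 14 were H2B and 10 were H2A promoters. AAACACA (reverse TGTGTTT) was in 9, 13.6%, against 5.64%, and among these were all 6 H1 promoters. A match is a string of letters and not a bound site.

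CDK9 peaks were dense in the histone windows in DMSO and with nucleotides, and sparse with A771726 alone. The CDK9 lists held 76 member peaks for DMSO, 4 for A771726 alone and 76 for A771726 with nucleotides. In the same order these peaks covered 37459, 395 and 33014 bp, which is 6.81%, 0.0718% and 6.0% of the 550 kb. The whole lists shrank and grew in the same order, with 3462, 290 and 3099 peaks. Members therefore made up 2.20% of the DMSO list (exact 95% interval 1.73% to 2.74%), 1.38% (0.377% to 3.49%) of the A771726 list and 2.45% (1.94% to 3.06%) of the list with nucleotides. The 3 intervals overlap, and no test of a difference in this share of peak numbers was run. All such intervals cover the counting error of peaks only and treat neighbouring peaks as independent. By covered length, members made up 4.50% of the DMSO list, 1.01% of the A771726 list and 4.29% of the list with nucleotides. The share by length was thus lower with A771726 alone, where it rests on 4 peaks.

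DDX21 peaks were few in the windows under every treatment. The DDX21 lists held 10 members of 8321 peaks in DMSO, 4 of 4375 with A771726 and 7 of 7922 with nucleotides. That is 0.120% (0.0576% to 0.221%), 0.0914% (0.0249% to 0.234%) and 0.0884% (0.0355% to 0.182%) of the lists. Their covered length was 2267, 608 and 1556 bp. The windows were thus much better represented in the CDK9 lists than in the DDX21 lists, by peak number and by length, in DMSO and with nucleotides.

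**Figure D1:**
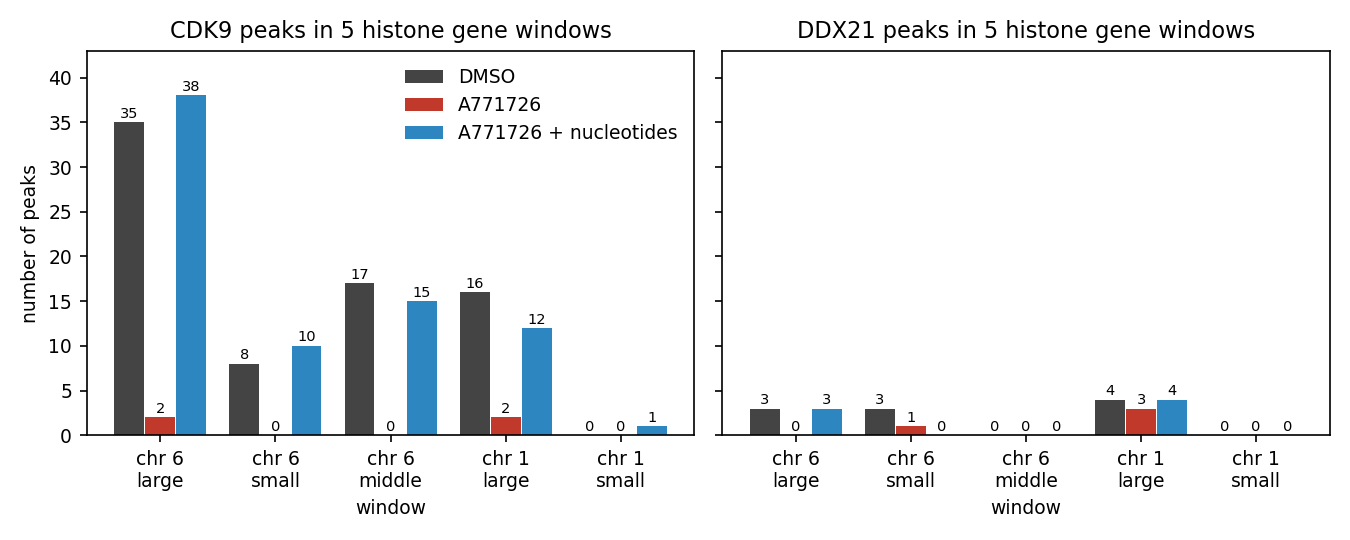
Number of CDK9 peaks (left) and DDX21 peaks (right) in each of the 5 histone windows, with 1 bar per library (DMSO, A771726, A771726 + nucleotides). CDK9 has 35 and 38 peaks in the large chromosome 6 window in DMSO and with nucleotides and 2 with A771726, while no DDX21 bar exceeds 4.

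Peaks followed the windows closely. Stretches of the same length on both sides of each window, 1100 kb in all, held 5 CDK9 peaks for DMSO, 0 for A771726 alone and 2 for the nucleotides library. Per 100 kb this is 0.455 peaks in the DMSO flanks against 13.8 in the windows, and 0.182 against 13.8 with nucleotides. For DDX21 the flanks held 5, 3 and 5 peaks, or 0.455 per 100 kb in DMSO against 1.82 in the windows.

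The windows differed in how densely CDK9 peaks lay along them. They also differ in genes for their length. The small chromosome 6 cluster has 5 protein-coding histone genes for a window of 25 kb, and the large one 32 for 275 kb. Peaks per gene were not compared. In DMSO, the small chromosome 6 window had 8 peaks, 32.0 per 100 kb, and 13.7% of its length was covered. The large chromosome 1 window had 16 peaks, 13.9 per 100 kb, with 10.4% covered, since its peaks were the longest, with a median of 724.5 bp. The middle chromosome 6 window had 17 peaks, with 6.63% covered, and the large one had 35 peaks, with 5.75% covered. The small chromosome 1 window had no CDK9 peak in DMSO. With nucleotides the same windows had 10, 12, 15 and 38 peaks, and the small chromosome 1 window had 1.

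Within a window, CDK9 peaks came in groups separated by long gaps. In the large chromosome 6 window, 14 of the 34 gaps between DMSO peaks were under 1 kb, and the longest, chr6:26056757-26104066, ran for 47310 bp. With nucleotides the longest gap lay in the same place and ran for 47374 bp. In the large chromosome 1 window the longest gap was 24075 bp in DMSO, chr1:149833123-149857197, and 24332 bp with nucleotides, again in the same place. In the middle chromosome 6 window the longest gap was 27299 bp in DMSO and 51858 bp with nucleotides, since the DMSO peaks at chr6:27833296-27833423 and chr6:27835057-27835363 had no counterpart with nucleotides.

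**Figure D2:**
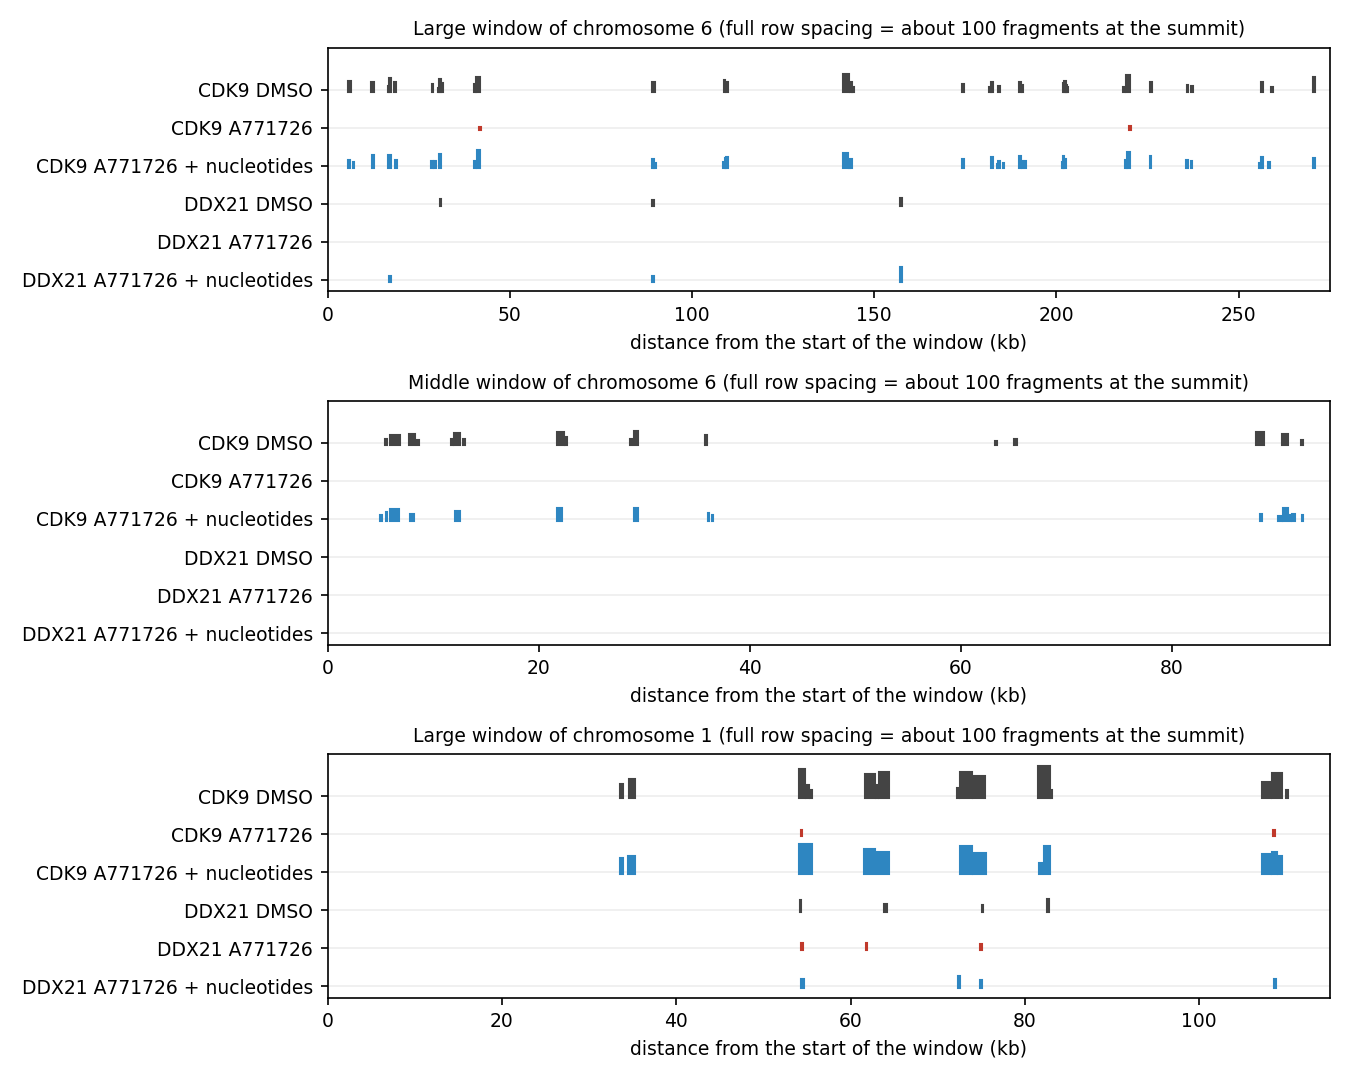
Peaks of the 6 lists in 3 of the windows, drawn as boxes at their distance from the start of the window (kb); box height is the summit pileup in fragments, and a full row spacing is about 100 fragments. Over all windows 49 CDK9 sites have boxes in both DMSO and nucleotides rows, 19 in DMSO only and 15 with nucleotides only, while A771726 has 4 boxes, 2 in the large chromosome 6 window and 2 in the large chromosome 1 window.

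Fold enrichment, the authors' ratio of signal to local background at a peak's summit, and −log10 q, their measure of how unlikely the peak is under that background, placed the CDK9 members high in their lists. In DMSO the members' median fold was 5.51 against 4.46 for the whole list, and their median −log10 q was 9.34 against 5.63. With nucleotides the medians were 5.40 against 4.29 for fold and 7.78 against 5.59 for −log10 q. Member peaks were also longer, with a median of 373.5 bp against 186 bp in DMSO and 323 bp against 186 bp with nucleotides. Of the 76 DMSO members, 27 lay in the highest decile of the list by −log10 q, 11 in the ninth decile and 10 in the lowest. Members held 2 of the 10 and 15 of the 100 highest ranks in DMSO, and 1 of the 10 and 14 of the 100 with nucleotides. The 4 A771726 members were ordinary for their list, with a median fold of 6.09 against 5.81 and a median −log10 q of 4.48 against 4.69.

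DDX21 members stood at the other end of their lists. Their median fold was 4.26 in DMSO, 4.37 with A771726 and 3.46 with nucleotides, against 10.1, 9.31 and 9.80 for the whole lists. In DMSO, 6 of the 10 members lay in the lowest decile of the list by −log10 q, 3 in the second and 1 in the third. None was among the 100 highest ranks of any DDX21 list.

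The strongest CDK9 sites of the large chromosome 6 window illustrate the pattern over treatments. Pileup is the number of fragments over the summit, worked out from the deposited values, and it is not scaled for depth. The site at chr6:26156464-26158170 had the largest fold of the whole CDK9 DMSO list, 15.5, with −log10 q of 41.5 and 49 fragments. It had no A771726 peak, and with nucleotides it had 40 fragments and a fold of 10.9. The site at chr6:26055235-26056756 had 40 fragments in the DMSO library, 8 in the A771726 library and 48 in the nucleotides library, at folds of 10.4, 5.92 and 14. The site at chr6:26233913-26235312 had 45, 10 and 43 fragments and folds of 8.92, 6.15 and 13.2. At both, the nucleotides library was close to DMSO in pileup and the A771726 library was lower, but pileups of the A771726 library may not be on the same scale as the others, as described with the heights. The next sites by −log10 q, chr6:26270693-26271715 and chr6:26045571-26046070, had 26 and 35 fragments in DMSO, no A771726 peak, and 30 and 37 fragments with nucleotides.

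In the small chromosome 6 window the 5 sites of highest −log10 q in DMSO had fewer fragments with nucleotides than in DMSO or the same number, and none had a CDK9 peak with A771726. The sites at chr6:27100044-27100591 and chr6:27100729-27101839 had 36 and 39 fragments in DMSO and 29 and 21 with nucleotides. The sites at chr6:27106891-27107617, chr6:27113794-27114231 and chr6:27114300-27114648 had 28, 21 and 27 fragments in DMSO and 25, 21 and 23 with nucleotides. A weaker site outside these 5, chr6:27114787-27115353, had 23 and 25.

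The middle chromosome 6 window also had no CDK9 peak with A771726. Its strongest site, chr6:27858040-27858723, went from rank 46 in DMSO, with a fold of 13.5 and 34 fragments, to rank 1847 with nucleotides, with a fold of 4.48 and 19 fragments. Its neighbour at chr6:27860495-27861068 had 30 fragments in DMSO and 37 with nucleotides. The sites at chr6:27799002-27799454 and chr6:27791758-27792391 had 39 and 35 fragments in DMSO and 37 in both cases with nucleotides. The site at chr6:27782001-27782520 had 33 and 27. The sites of this window thus differed in both directions between these 2 libraries.

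The tallest CDK9 peaks of the 5 windows were on chromosome 1. The site at chr1:149831517-149832888 had 88 fragments in DMSO, the highest of any member, ranked 7 in the list, and had 77 with nucleotides. The sites at chr1:149822245-149823957, chr1:149811506-149812849 and chr1:149812938-149814383 had 71, 66 and 71 fragments in DMSO and 78, 70 and 61 with nucleotides. None of these 4 had a CDK9 A771726 peak. The 2 sites of this window that did were chr1:149804084-149805604, with 79, 16 and 83 fragments for DMSO, A771726 and nucleotides, and chr1:149858404-149859552, with 70, 18 and 61. The first of these is the mirror partner of chr1:149831517-149832888, as described below with the mirror axis. How reads that fit both copies were placed is not stated, so an A771726 peak at only 1 partner does not show that they differ. The local background was also highest in this window, with a median of 7.28 fragments at the DMSO summits against 2.77 to 3.12 in the chromosome 6 windows. In the small chromosome 1 window, the single peak, chr1:228645416-228645582 with nucleotides, had 32 fragments over a background of 8.85, a fold of 3.35 and −log10 q of 5.23.

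Of the 83 sites with a CDK9 peak, 4 had one under all 3 treatments, 45 in DMSO and with nucleotides, 19 in DMSO only and 15 with nucleotides only. None had a CDK9 peak with A771726 only, or with A771726 and just 1 of the other treatments. Counted over peaks, 4 of the 76 DMSO members overlapped an A771726 peak, 5.26% (1.45% to 12.9%), against 5.40% of the whole DMSO list. The share in the windows was thus near that of the list as a whole. All 4 shared peaks were among the 27 members of the highest decile, 14.8% (4.19% to 33.7%), where 99 of 320 other peaks, 30.9% (25.9% to 36.3%), were shared. These intervals overlap. Conversely, 4 of 4 A771726 members overlapped a DMSO peak, against 77.6% of that list.

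A peak with A771726 needed a certain height to be called, and that was compared between libraries after dividing pileup by the lowest background of the list. The DMSO, A771726 and nucleotides lists had lowest backgrounds of 1.17, 0.521 and 1.24 fragments and shortest peaks of 128, 50 and 129 bp. The CDK9 A771726 list thus stood apart in both. Peaks as short as these can go with a shorter fragment length set in peak calling, and a shorter length gives lower pileups; the length used is not stated, and its part in the pileups and heights was not tested. The lowest height called with A771726 was 15.4, that of the histone site at chr6:26055235-26056756. In DMSO, 56 of the 76 members were at or above it, and 52 of these 56 had no A771726 peak. The share with one, 7.14% (1.98% to 17.3%), was close to that of the other 2674 DMSO peaks past the same height, 6.43% (5.53% to 7.43%).

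At the 4 sites with a CDK9 peak in both libraries, heights in DMSO and with A771726 were 34.2 and 15.4, 38.4 and 19.2, 67.5 and 30.7, and 59.8 and 34.6, in the order chr6:26055235-26056756, chr6:26233913-26235312, chr1:149804084-149805604 and chr1:149858404-149859552. All 4 were lower with A771726, against a background of 57.5% of all such CDK9 sites. The median log2 ratio of height was -1.07, with a range of -1.15 to -0.79. At the 175 other sites with both peaks it was -0.09 (order-statistic 95% interval -0.14 to 0.03). The 4 histone sites therefore lay below the middle of the other shared sites. Their median DMSO height was 49.1, against 30.7 at the other sites. With a lowest called height of 15.4, a lower DMSO peak can fall less and still be called. The ratios of the 2 groups were therefore not bounded alike, and sites of like DMSO height were not compared. The lowest ratio among the other sites was -1.19, so the histone sites did not lie outside their range. Sites with a peak in both lists leave out those too low to be called with A771726.

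With nucleotides the CDK9 pattern of the windows was close to that in DMSO. Of the 76 DMSO members, 56 overlapped a peak of the nucleotides list, 73.7% (62.3% to 83.1%), against 45.2% of the whole list. In the other direction, 61 of 76, 80.3% (69.5% to 88.5%), overlapped a DMSO peak, against 50.6%. Strong peaks were shared in a high proportion inside and outside the windows: in the highest decile of −log10 q, 27 of 27 members (87.2% to 100%) and 291 of 320 other peaks, 90.9% (87.2% to 93.8%), were shared. By window, 27 of 35 DMSO peaks were shared in the large chromosome 6 window, 7 of 8 in the small, 9 of 17 in the middle and 13 of 16 in the large chromosome 1 window.

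**Figure D3:**
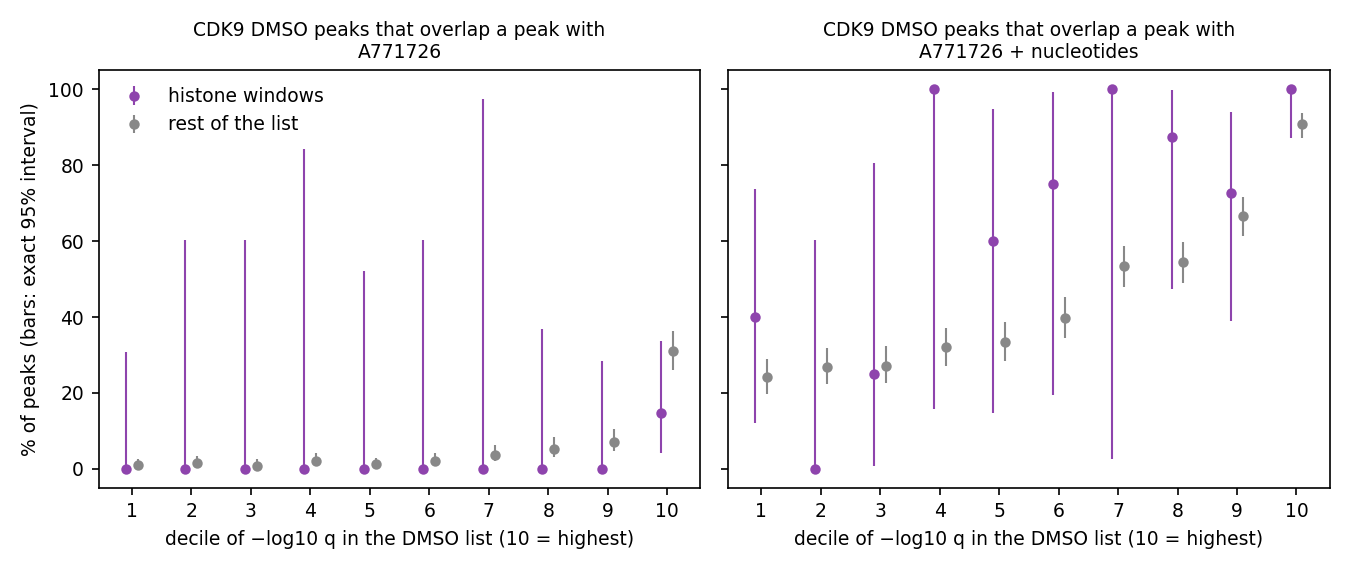
Percent of CDK9 DMSO peaks that overlap a peak with A771726 (left) or with A771726 + nucleotides (right), by decile of −log10 q in the DMSO list (10 is the highest), for the histone windows and the rest of the list; bars are exact 95% intervals. In the highest decile, 14.8% of histone peaks and 30.9% of other peaks are shared with A771726, and 100% and 90.9% with nucleotides.

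Height at the 49 CDK9 sites with a peak in DMSO and with nucleotides was lower with nucleotides at 29 and higher at 20, against a background of 52.0% lower. The median log2 ratio was -0.09 (-0.25 to 0.04), against -0.02 (-0.03 to 0.01) at the 1429 other sites. The interval of the histone sites includes 0, and the lowest single site was at -0.98. Log2 heights in the 2 libraries correlated across the 49 sites with Pearson's r of 0.88 and Spearman's rho of 0.78, and across the other sites with 0.82 and 0.76. These are descriptions across sites, which share the 2 libraries and, in part, their local background.

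**Figure D4:**
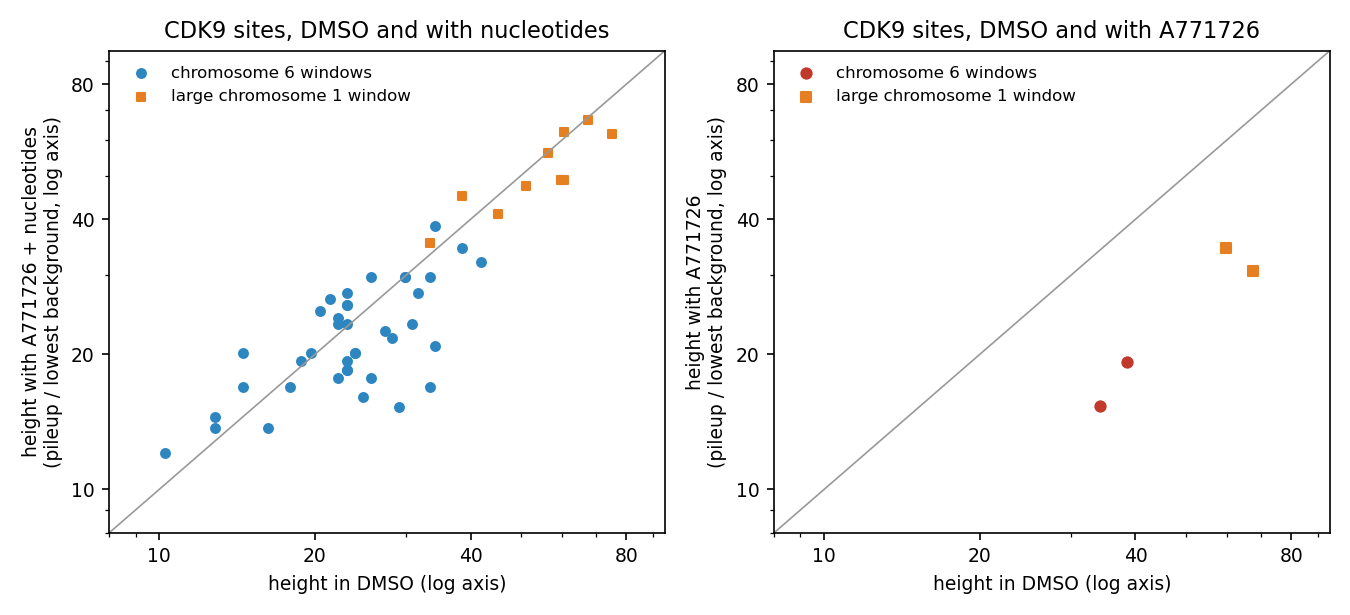
CDK9 peak height (pileup divided by the lowest background of the list, log axes) at histone sites in DMSO against A771726 + nucleotides (left, 49 sites) and against A771726 (right, 4 sites); the line marks equal height. Sites lie on both sides of the line with nucleotides, and all 4 lie under it with A771726, at 15.4 to 34.6 against 34.2 to 67.5 in DMSO.

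With the treatments pooled, sites with a DDX21 peak in the windows nearly always had a CDK9 peak too, though not always in the same treatment. Of the 84 sites, 70 had CDK9 peaks only, 13 had peaks of both and 1 had DDX21 only. In DMSO, 9 of the 10 DDX21 members overlapped a CDK9 peak (55.5% to 99.7%), against 7.38% of the whole DDX21 list. With nucleotides it was 6 of 7 (42.1% to 99.6%), against 5.30%, and with A771726 it was 1 of 4, against 0.960%. In DMSO and with nucleotides, CDK9 peaks were denser in the windows than in the flanks and longer than in the whole list. The shares were not adjusted for this. Read from CDK9, the overlap was not high: 9 of 76 DMSO members, 11.8% (5.56% to 21.3%), lay on a DDX21 peak, against 17.8% of the whole CDK9 list. With nucleotides 6 of 76 did, against 13.6%, and with A771726 1 of 4, against 15.5%.

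Few DDX21 members met a DDX21 peak of another treatment, and they rest on few fragments, 11 to 41 at the summit. Of the 10 DMSO members, 2 overlapped an A771726 peak (2.52% to 55.6%), against 51.1% of the list, and 4 overlapped a nucleotides peak (12.2% to 73.8%), against 86.3%. Of the 7 members with nucleotides, 4 overlapped a DMSO peak, against 90.0%, and of the 4 with A771726, 2 did, against 99.3%. These counts take each peak at its own position, also in the large chromosome 1 window, where mirrored copies cannot be told apart. Both intervals for the DMSO members are wide, and 9 of the 10 lay in the lowest 2 deciles of their list, where fewer of the other peaks were shared than in the list as a whole. In the lowest decile, 2 of 6 members (4.33% to 77.7%) and 7 of 826 other peaks, 0.847%, met an A771726 peak, and 3 of 6 members (11.8% to 88.2%) and 315 of 826 other peaks, 38.1%, met a nucleotides peak. In the second decile none of 3 members met either, against 2.53% and 54.6% of the other peaks. Set beside peaks of like strength, the members' shares were therefore not below the rest in the lowest decile, by the 1 bp rule. For A771726 this rests on 2 members that met an A771726 peak only at its end. Under the stricter 50% rule, 0% of the 10 DMSO members met an A771726 peak and 20% a nucleotides peak. The other peaks of that decile were not counted under the 50% rule, so the comparison cannot be made there. Height was lower with A771726 at 3 of 3 shared sites, against a background of 99.0%, with a median log2 ratio of -0.48 (range -0.68 to -0.16), against -1.26 at the 4237 other sites. Median DMSO height was 17.3 at these 3 sites and 106 at the others, and the lowest DDX21 height called with A771726 was 8.58. A low DMSO peak can fall only little and still be called, so these ratios do not show a smaller fall at histone sites. With nucleotides height was lower at 1 of 4 shared sites, against 39.7%.

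The strongest DDX21 member was the site without CDK9, chr6:26172124-26172384. It had 21 fragments, a fold of 6.96 and −log10 q of 11.3 in DMSO, no A771726 peak, and then 41 fragments, a fold of 7.2 and −log10 q of 21.0 with nucleotides. The other DDX21 DMSO peaks of that window, chr6:26045733-26045888 and chr6:26104084-26104213, had 18 and 16 fragments, both lay on CDK9 peaks, and the latter also met a nucleotides peak of 15 fragments. In the small chromosome 6 window, DDX21 had DMSO peaks at chr6:27113824-27113971, chr6:27106892-27107229 and chr6:27100873-27101075, with 16, 14 and 16 fragments, and none with nucleotides. The last of them met an A771726 peak of 11 fragments, the only DDX21 member with A771726 outside chromosome 1. On chromosome 1, the DMSO peak at chr1:149804172-149804362 had 35 fragments over a background of 17.3 and, with a fold of 1.97, was the last of the 8321 peaks of its list. That site also had DDX21 peaks of 21 fragments with A771726 and 27 with nucleotides, and it was the 1 site where the A771726 libraries of both antibodies had overlapping peaks. The DMSO peaks at chr1:149825040-149825230, chr1:149832532-149832802 and chr1:149813825-149814202 had 21, 36 and 24 fragments and folds of 4.13, 2.96 and 2.59. A DDX21 A771726 peak of 19 fragments at chr1:149811748-149811893 had no DMSO or nucleotides partner at its own position. Reflected at the mirror axis described below, it falls at chr1:149825023-149825168 and overlaps DDX21 peaks of both those lists, so it cannot be called particular to A771726. Another A771726 peak of 18 fragments, chr1:149824904-149825037, overlapped a nucleotides peak but no DMSO peak, though it lay next to one in the same site.

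The central CDK9 peaks of the large chromosome 1 window mirrored each other. The window is known to hold an inverted duplication, and the H4C14, H2AC18 and H3C14 promoters printed above have identical copies on the opposite strand. A mirror axis was fitted on the CDK9 DMSO list and fell at chr1:149818458. Within 16 kb on either side, 9 of 11 DMSO peaks met a mirrored peak of the same list, and 86.9% of their 8361 bp did, which has no independent weight because the axis was fitted on them. In the nucleotides list the numbers were 7 of 7 peaks and 90.0% of 8143 bp, while 25.4% of those 32 kb were covered. That list adds no independent weight either, since all 12 of its peaks in the window overlapped a DMSO peak. Beyond 16 kb, 0 of the other 5 DMSO peaks and 0 of the other 5 nucleotides peaks met a mirrored peak, so that 9 of 16 and 7 of 12 peaks of the window did in all.

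The mirrored peaks were also similar in pileup. In DMSO the 3 pairs had 71 and 71, 66 and 60, and 79 and 88 fragments, from the axis outward. With nucleotides they had 61 and 78, 70 and 59, and 83 and 77. Fold was less alike in the outermost pair, at 4.54 and 8.32 in DMSO and 9.02 and 5.79 with nucleotides. In DMSO the backgrounds of that pair were 16.6 and 9.70 fragments. How reads that fit both copies were placed is not stated, so the copies of a pair cannot be told apart. The A771726 peak at chr1:149804278-149804421, with 16 fragments, had no mirrored peak. Of the 4 DDX21 DMSO peaks within 16 kb, 2 met a mirrored peak, over 382 of their 1031 bp. With A771726 it was 2 of 3 DDX21 peaks, over 30 of 483 bp, and with nucleotides 0 of 3. Without the large chromosome 1 window, 2 of 60 CDK9 DMSO members overlapped an A771726 peak, 3.33% (0.406% to 11.5%), and 43 of 60, 71.7% (58.6% to 82.5%), overlapped a nucleotides peak.

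**Figure D5:**
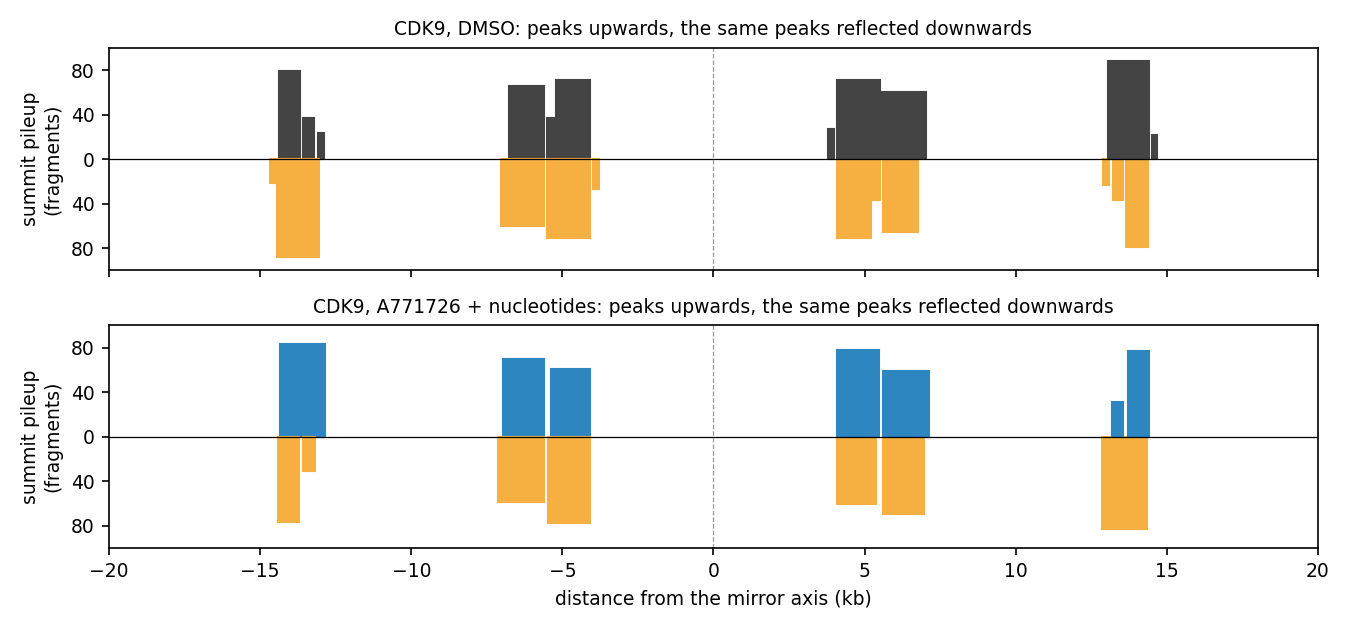
CDK9 peaks within 20 kb of the mirror axis of the large chromosome 1 window, in DMSO (top) and with A771726 + nucleotides (bottom), as boxes of summit pileup in fragments; boxes pointing down are the same peaks reflected at the axis. The 3 tallest pairs, with summits near 4, 6 and 14 kb, have 60 to 88 fragments in DMSO and 59 to 83 with nucleotides on both sides.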

How the data were processed

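The files used here are 6 peak lists, 1 per antibody and treatment; the 3 input samples of the 9 were not used here. Per the submitters' processing notes, the authors used Bowtie, MACS2 2.0 and hg19. The role of each tool, its parameters, the control of each list and the placing of reads that fit several positions were not given in the sources used here. Every deposited list gives fold enrichment (a ratio to local background at the summit), −log10 p-value and −log10 q-value as the authors' caller wrote them, a deposited score that was not used, and the summit's place in the peak. The lowest −log10 q of each list lay near that of q = 0.05. No read totals were found in the labels or lists, so the sequencing depth is unknown.

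Members, motif strings and lists were chosen with earlier results of these data known. Samples were grouped by title. Peaks were shared at an overlap of at least 1 bp, and overlapping peaks were joined to sites. Named sites were, per window, up to 5 of highest CDK9 and up to 3 of highest DDX21 DMSO −log10 q, and every site with a CDK9 A771726 peak or with both a DDX21 A771726 and a CDK9 peak; the chromosome 1 peaks of the mirror comparison, the small chromosome 1 peak, the gaps and the site without CDK9 were chosen after their values were seen. Intervals are exact (Clopper-Pearson) 95%. Pileup and background were solved from fold = (pileup + 1)/(background + 1) and a Poisson tail for −log10 p, with a whole-number pileup within 0.001 for 100% of peaks of every list; height is pileup over the list's lowest background. Of these steps, only the recovery of pileup and the overlap calls were tested on simulated data. The simulated backgrounds did not go as low as the 0.521 of the CDK9 A771726 list. Alternatives were −log10 q of at least 5, windows widened by 10 kb, peaks within 1 kb merged, 50% overlap of the shorter peak, summits within 250 bp, equal numbers of top peaks, unscaled pileup, leaving out the large chromosome 1 window and, added after seeing the data, a common lowest −log10 p. Python 3.11.15, numpy 2.4.6, pandas 2.3.3, scipy 1.17.1 and matplotlib 3.10.9 were used. RefSeq tables of GRCh38.p14 gave gene order and promoters, and no coordinates were converted.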

Additional observations from a re-analysis of the deposited data

How the results depend on the processing

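Of 52 alternative values, 41 stayed within bounds (counts within 1.5 times the reported one, shares within its exact 95% interval, height ratios within its interval or range), 11 moved and 0 changed direction. The wide DDX21 interval let 1 share pass as within bounds: DDX21 DMSO members with a nucleotides peak went from 40.0% to 16.7% at −log10 q of at least 5 and to 20% at 50% overlap. Likewise the CDK9 share with A771726 was 3.33% without the large chromosome 1 window, and the CDK9 height ratio with nucleotides was 0 without scaling. With peaks within 1 kb merged, the CDK9 windows held 40 peaks in DMSO and 39 with nucleotides. At −log10 q of at least 5, CDK9 with A771726 kept 2 peaks, and DDX21 kept 6 for DMSO, 1 for A771726 and 3 for nucleotides. The share of DDX21 DMSO members with an A771726 peak was 0% at −log10 q of at least 5 and 0% at 50% overlap. With equal numbers of top peaks from each list, 16% of the 25 CDK9 DMSO members left had an A771726 peak. The share of the other top peaks was not computed, but 30.9% of the other peaks in the highest DMSO decile had one. At this setting 0% of the CDK9 members lay on a DDX21 peak. That value was fixed in advance, since the best DDX21 DMSO member ranked 6390 and only 3462 peaks were kept. The DDX21 share with A771726 could not be computed, since no member was left. Without scaling, the median log2 ratio of CDK9 pileup with A771726 was -2.24, against -1.07 for height; at the other sites it was -1.25. Past a common lowest −log10 p of 6.06, 71 of the DMSO, 4 of the A771726 and 74 of the nucleotides CDK9 members were left. No paired analysis was possible because each group had 1 library and no test was run. The lowest pileup of a called peak was 8 to 10 fragments by list, so an absent peak does not show an absence of binding.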
